A study of Mus musculus with 2 samples.

Results

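The genes described here belong to the ubiquitin system, and were read from RIP-seq, the sequencing of RNA pulled down with a protein, here the spliceosome component BUD31. Members were protein-coding rows of the authors' peak list whose gene symbol starts with Usp, Rnf, Ube, Ubr, Fbxo, Fbxw, Fbxl, Trim or Cul and a digit, with Rnf212 left out. The rule found 67 genes with 273 peaks, of 2710 genes and 14411 peaks of protein-coding type and 16331 peaks in all. These are 67 of 220 genes with such symbols on the chromosomes of the list, where 18.1% of all coding genes had a peak. The cells were testicular germ cells of C57BL/6J mice aged 14 days after birth, freed by enzymatic digestion, with no other treatment and no mutant allele in the labels. There were 2 libraries, 1 recovered with the anti-BUD31 antibody and 1 of input RNA, for which 10% of the total RNA was set aside. How many animals were pooled is not given. Each peak comes as an interval on mm10 that the authors assigned to a gene and to a class such as intron or 3′ UTR. Since it carries neither reads nor a fold, depth and strength are unknown. With 1 library per group there was no replicate check and no test. Bracketed ranges are Wilson 95% intervals that cover counting error over genes or peaks, and peaks of the same gene are not independent. Fewer cells of a type and less RNA per cell cannot be told apart in such bulk RNA.

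Ubiquitin is a small protein that is attached to other proteins and marks them for degradation by the proteasome or for a change of function. An activating enzyme (E1) hands it to a conjugating enzyme (E2), and a ligase (E3) chooses the substrate. The Ube2 genes encode E2 enzymes. Rnf, Trim, Ubr, Ube3 and Ube4 genes encode ligases, cullins are scaffolds of ligase complexes, and F-box proteins (Fbxo, Fbxw, Fbxl) are the substrate receptors of cullin complexes. Ubiquitin-specific proteases (Usp) remove ubiquitin again. In male germ cells the system is known for its part in meiotic recombination, silencing of the sex chromosomes and the removal of histones. Uspl1 falls under the Usp prefix but acts on SUMO, a relative of ubiquitin, and Ube2f conjugates NEDD8, another relative. The list has no expression value, so a gene without a peak may be unexpressed, not recovered or removed from the list. Genes of the germ line such as Tex11, Mael and Boll carried 38, 14 and 15 coding-type peaks. The Sertoli and Leydig cell genes Amh, Rhox5, Insl3 and Star carried 0. Insl3 and Star lie on chromosome 8, with a peak in only 13.7% of its coding genes. For chromosome 10, with Amh, the share was 28.5%, and for the X chromosome, with Rhox5, 47.7%. The spans of these genes were not compared, so their 0s cannot show how many somatic cells were present. Of the 7 somatic genes looked at 3 carried a peak: Kitl, a Sertoli cell gene, 6, and Pdgfra and Myh11 1 each.

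Peaks lay over the annotated start of 5 members whose strand is known, and in 3 of them, Cul3, Usp11 and Cul4b, 1 peak held the whole promoter window of the RefSeq table (GRCm38.p6, the mm10 assembly). Those 3 windows are shown because the recovered stretch there reaches past the annotated gene. Each line gives the 250 bases before the start, 5′ to 3′ on the strand of the gene, with GC boxes (GGGCGG) and CCAAT boxes (CCAAT) in capitals, both strands searched.
Cul3, chr1:80340691-80340940, minus strand: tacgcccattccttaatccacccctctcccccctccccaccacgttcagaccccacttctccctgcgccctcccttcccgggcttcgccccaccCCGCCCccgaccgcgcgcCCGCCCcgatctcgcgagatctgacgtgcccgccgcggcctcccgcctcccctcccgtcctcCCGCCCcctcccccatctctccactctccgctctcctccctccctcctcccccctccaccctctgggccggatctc
Usp11, chrX:20703659-20703908, plus strand: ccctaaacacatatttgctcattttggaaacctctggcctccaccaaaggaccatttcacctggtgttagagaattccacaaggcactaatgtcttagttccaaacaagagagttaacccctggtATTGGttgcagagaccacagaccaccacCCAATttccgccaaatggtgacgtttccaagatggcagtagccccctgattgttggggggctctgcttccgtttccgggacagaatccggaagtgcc
Cul4b, chrX:38576197-38576446, minus strand: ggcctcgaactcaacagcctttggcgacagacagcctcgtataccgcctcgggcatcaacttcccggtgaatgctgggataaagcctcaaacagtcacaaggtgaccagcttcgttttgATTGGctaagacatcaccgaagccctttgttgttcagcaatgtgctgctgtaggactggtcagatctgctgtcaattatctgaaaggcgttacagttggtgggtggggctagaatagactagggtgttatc

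Cul3, the scaffold of ligases with BTB-domain receptors, had 3 GC boxes, 0 CCAAT boxes and 23 CpG dinucleotides in its window. Usp11, an X-linked protease, had 2 CCAAT boxes and 5 CpG, and Cul4b, the X-linked scaffold that binds DDB1, had 1 CCAAT box and 9 CpG. Of all 32851 promoter windows of the same length, 32.7% held a GC box and 33.8% a CCAAT box, and the median was 6 CpG. A TATA box (TATAAA) was in none of the 3 and in 12.4% of all windows. The peaks began 450 bp before the annotated start of Cul3, 918 bp before that of Usp11 and 784 bp before that of Cul4b. Positions are given in bins of 205 bp on chromosome 1 and 230 bp on the X chromosome, so these stretches are 2.2, 3.99 and 3.41 bins. At Cul3 the noncoding gene Gm39667 starts 223 bp away on the opposite strand, and the peak also overlaps it by 228 bp. The list gives no strand, so transcripts of the pair cannot be told apart. The other starts under a peak were those of Ube2a and Ube3c. Of the 67 members 49 had an entry in the promoter table, which gave their strand.

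A microRNA sits under 1 member's peak. The peak of Rnf144a at chr12:26414046-26415275 holds the whole of Mir6538, whose hairpin lies at chr12:26414901-26415010 on the same, minus, strand. Its mature product is shown with the seed, bases 2 to 8, in capitals.
mmu-miR-6538, chr12:26414970-26414988, minus strand: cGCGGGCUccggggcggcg

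The members with the most peaks are described first. Usp12, a protease that works with the cofactor WDR48, carried 16 peaks on chromosome 5 from 146747601 to 146793600, all of class intron. Their median width was 400 bp and the widest had 2200 bp. A single bin, the smallest step of the list, held 5 of them, and together the peaks covered 15.3% of a gene of 60.1 kb. The 3′ end of the gene, from 146734809 up to the first of these positions, had none. Usp26, an X-linked protease expressed mainly in testis, carried 14 intron peaks from 51757361 to 51799220. These were 690 to 3680 bp wide and covered 50.7% of 48.6 kb. All 14 also lie inside the noncoding gene Gm35727, which runs over the locus on the opposite strand, so the peaks cannot be assigned to Usp26 alone. Usp37, a protease that counters cyclin A degradation, carried 13 peaks on chromosome 1 from 74438371 to 74537385. Of these 11 were intronic, 1 was in an exon and 1 in the 3′ UTR, and they covered 53.9% of 108.8 kb. Its peaks crowd into the 3′ part: 11 of them follow one another from 74438371 to 74501305, with a stretch of 28495 bp without a peak of Usp37 before the other 2. Peaks that the list gives to Cnot9, which overlaps that stretch on the opposite strand, lie within it.

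Rnf216, a ligase of the RING-between-RING type, carried 17 intron peaks on chromosome 5 from 142993001 to 143112600. They were 200 to 2000 bp wide and covered 12.9% of 122.1 kb, and lay far apart, with a median gap of 4900 bp. The noncoding gene Gm43380 on the opposite strand lies under 5 of them. Cul3 led the set with 18 peaks, 17 in introns and 1 in the 3′ UTR, which covered 62.7% of 75.8 kb on chromosome 1. The median gap between its peaks was 1025 bp. Fbxo28, an F-box protein, had 13 peaks over 64.7% of 28.5 kb. Fbxo21 and Rnf128 had 9 each, over 22.1% and 12.4%. Cul4b had 8 over 88.1%, and Usp9x, the large X-linked protease, had 6 over 65.4%. These 10 genes held 123 of the 273 peaks (45.1%). The matching share over all coding genes was not computed. Members with a peak had a mean of 4.07 peaks, against 5.34 over all coding genes with a peak. The highest number was 18 in members and 154 in coding genes.

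**Figure D1:**
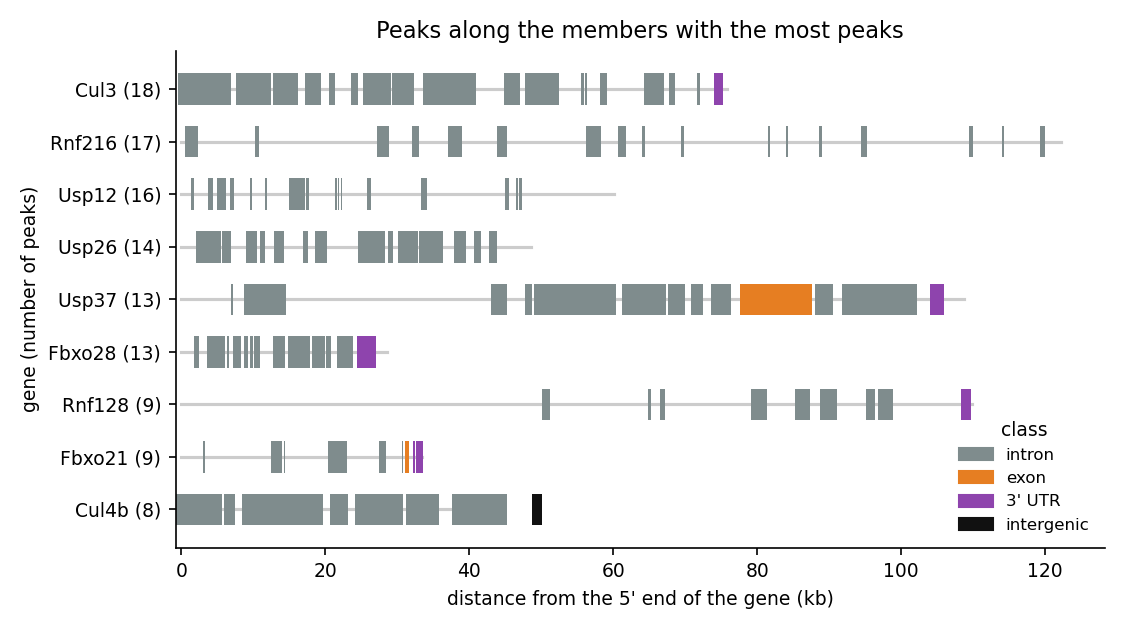
Peaks along 9 of the 10 members with the most peaks, drawn from the 5′ end of each gene (x axis, kb), with the number of peaks after the name on the y axis; Usp9x has no strand in the table and is not drawn. Grey lines are genes and bars are peaks, coloured by class: the bars of Cul3 and Cul4b lie close together, those of Rnf216 and Usp12 are thin and far apart, and those of Usp37 and Rnf128 lie mostly in the 3′ part.

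Many peaks did not always go with a high covered share. Rnf216 and Usp12, on chromosome 5, had 17 and 16 peaks over 12.9% and 15.3% of their length, whereas the X-linked gene Ube2a carried only 2, yet these covered 90.7% of its 9.93 kb. Ube2a, a RAD6-type conjugating enzyme of DNA damage tolerance, had 1 peak of 7360 bp from 4 bp before its start and 1 of 1840 bp in the 3′ UTR. The 5 members with the largest covered share were Ube2a, Cul4b, Rnf138 (83.9%), a ligase of DNA break repair, Ubr7 (71.3%), a relative of the N-end rule ligases, and Usp11 (69.2%). Among members 15 (22.4%) were covered over at least 50% of their length, beside 18.2% of coding genes with a peak, and all 15 lie on chromosomes 1, 12, 18 or X. The chromosome moved with this value. On chromosome 5 the 17 members with a peak had a median cover of 12.2% and a highest of 42.4%, against a median of 9.10% over all coding genes with a peak there. On chromosome 1 the medians were 49.5% for members and 27.8% for all coding genes, and on the X chromosome 67.3% and 35.9%. How far the chromosome sets the members' cover was not tested.

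**Figure D2:**
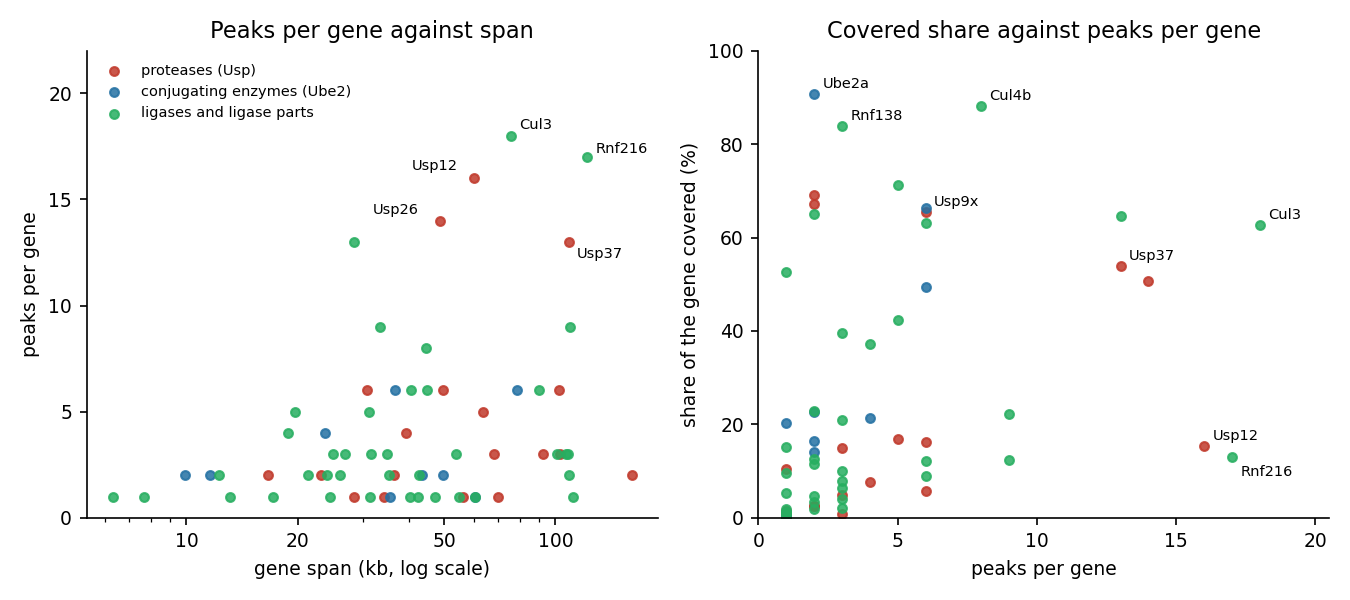
Left, peaks per gene against gene span in kb (log scale) for the 67 members; right, share of the gene covered in percent against peaks per gene. Each point is 1 gene, coloured by role: Cul3, Rnf216, Usp12, Usp26 and Usp37 stand highest on the left, and on the right Ube2a with 2 peaks is covered over 90.7% while Rnf216 with 17 is covered over 12.9%.

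A peak was found in 67 of the 220 members that the reference table places on the 15 chromosomes of the list, or 30.5% (24.8% to 36.8%), where 18.1% of all 14867 coding genes had one. Another 125 genes with these prefixes lie on chromosomes that carry no peak here, and they were not analysed here. Coverage of the chromosomes is uneven: on chromosomes 4, 11 and 19, with 71 members, no coding gene had a coding-type peak. On the 8 chromosomes where at least 10% of coding genes had one (1, 5, 8, 10, 12, 16, 18 and X), 60 of 103 members had a peak, or 58.3% (48.6% to 67.3%), against 34.5% of all coding genes. Members there were longer, with a median span of 31.4 kb against 21.5 kb. With the coding genes there split by span into 3 equal groups, 3 of 18 members had a peak in the shortest (up to 11.2 kb), or 16.7% against 15.0% of coding genes. In the middle group, up to 38.7 kb, 26 of 43 members had one (60.5%, 45.6% to 73.6%) against 37.6%, and in the longest 31 of 42 (73.8%, 58.9% to 84.7%) against 50.8%. The share of members lay above that of coding genes on each of the 8 chromosomes. It was close to it on the X chromosome (6 of 12 against 47.7%) and on chromosome 8 (3 of 18 against 13.7%). The widest gap was on chromosome 1, with 11 of 13 members (84.6%) against 38.8%.

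**Figure D3:**
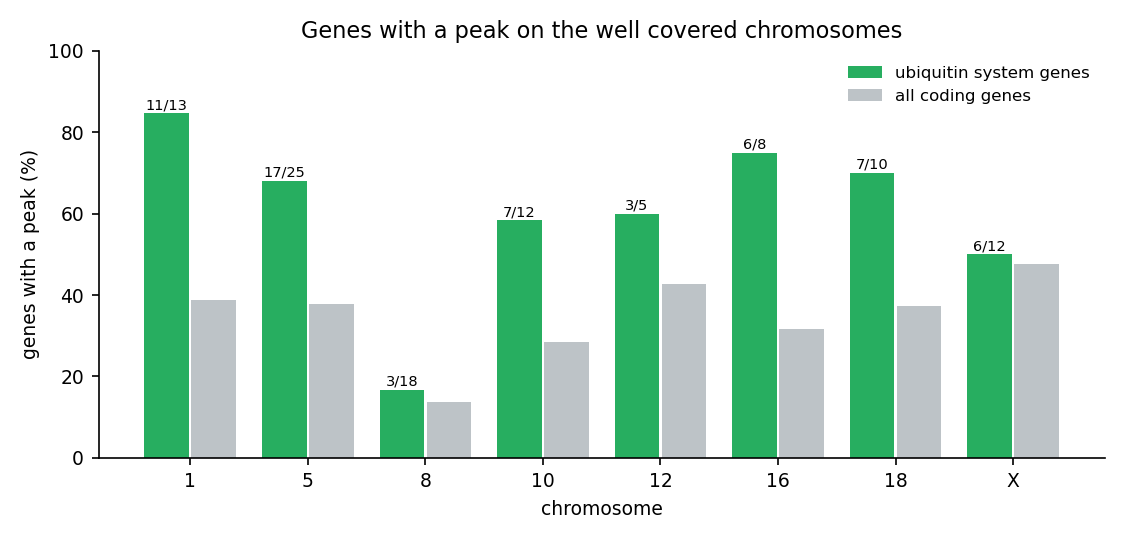
Share of genes with a peak in percent (y axis) on each of the 8 well covered chromosomes (x axis), for ubiquitin system genes (green, with the counts above the bar) and all coding genes (grey). The green bar is highest on chromosome 1, at 11 of 13 genes, and close to the grey bar on chromosomes 8 and X.

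The share of genes with a peak was higher in proteases than in the other roles. Of 36 Usp genes 19 had one (52.8%, 37.0% to 68.0%), of 27 Ube2 genes 9 (33.3%, 18.6% to 52.2%) and of 157 ligases and ligase parts 39 (24.8%, 18.7% to 32.1%). The 36 were counted by prefix and include Usp6nl, a protease by name only, which had no peak. The interval of the proteases lies above that of the ligases and overlaps that of the conjugating enzymes. Chromosomes and spans differ between the roles: the median span was 50.8 kb for Usp, 24.4 kb for Ube2 and 24.5 kb for ligases. On the well covered chromosomes alone the counts were 17 of 21 (81.0%, 60% to 92.3%), 8 of 14 (57.1%, 32.6% to 78.6%) and 35 of 68 (51.5%, 39.8% to 62.9%), and there all 3 intervals overlap. The 4 proteases without a peak there, named after their values were seen, were Usp10, Usp21, Usp27x and Usp51, of which the last 3 span 6.01, 3.24 and 4.90 kb. In the shortest of the 3 span groups 0 of 3 proteases, 1 of 4 conjugating enzymes and 2 of 11 ligases had a peak. The middle group had 6 of 6, 4 of 6 and 16 of 31, and the longest 11 of 12, 3 of 4 and 17 of 26. Of coding genes 15.0%, 37.6% and 50.8% had one in these groups. Within each group the intervals of the roles overlap. Few Trim genes had a peak, 3 of 35, and 1 of 11 (9.09%, 1.62% to 37.7%) on the well covered chromosomes. That 1 was Trim36, whose only peak is intergenic and covers 0 bp of it. The shares of all coding genes were 18.1% and 34.5%, and the interval holds the second. Trim genes on the well covered chromosomes had a median span of 20.2 kb, against 31.4 kb for members and 21.5 kb for coding genes. Chromosome 8, with a peak in only 13.7% of its coding genes, holds Trim60, Trim61, Trim67, Trim75, Triml1 and Triml2. What part span and chromosome have in the low Trim count was not tested. On the well covered chromosomes Rnf genes had a peak in 16 of 29, Fbxo genes in 9 of 15 and cullins in 4 of 4.

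Among genes with a peak the median number of peaks was 3 for the 19 proteases (range 1 to 16), 2 for the 9 conjugating enzymes (1 to 6) and 3 for the 39 ligases (1 to 18), beside 3 over all 2691 coding genes with a peak. A single peak was found in 4 proteases, 2 conjugating enzymes and 12 ligases. Those were 26.9% of the members with a peak, beside 31.8% of the coding genes with a peak. At least 10 peaks were found in 3 proteases (Usp12, Usp26, Usp37), in 3 ligases (Cul3, Rnf216, Fbxo28) and in no conjugating enzyme. That makes 8.96% of members, against 13.7% of coding genes. Per 100 kb of span the medians were 5.86, 7.63 and 8.20 peaks, beside 8.87 over all coding genes, so that the proteases came lowest on that scale.

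By class, introns held 237 of the members' 273 peaks (86.8%, 82.3% to 90.3%), against 84.6% of all coding-type peaks. The share was 91.2% (83.6% to 95.5%) in proteases, 88.5% (71.0% to 96.0%) in conjugating enzymes and 84.0% (77.4% to 88.9%) in ligases, with overlapping intervals. Exons held 4, 0 and 5 peaks and 3′ UTRs 3, 3 and 13. Over all members that was 3.30% in exons and 6.96% in 3′ UTRs, beside 3.71% and 5.43% of all coding-type peaks. Intergenic peaks made up 2.20% and downstream peaks 0.366%, beside 4.66% and 0.784%. Peaks of a class outside the gene numbered 1, 0 and 6, though those of Rnf168 and Cul4a reach 1042 and 540 bp into it. Intron peaks only were found in 38 of the 67 members, and the matching share of coding genes was not computed. Only 1 class stands beside each peak, and wide intron peaks may span exons too. Seen from the 5′ end, 21.3% of the 207 gene-body peaks with a known strand had their centre in the first 25% of the gene and 29.0% in the last 25%, beside 24.6% and 25.6% of all coding peaks. Proteases had 23.9% and 25.4%, and ligases 18.8% and 30.5%.

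Width differed between the roles by its median. In the conjugating enzymes 26 peaks had a median width of 2620 bp (95% interval of the median 1230 to 6000), against 1025 bp (690 to 1610) for 91 protease peaks, 1230 bp (1000 to 1600) for 156 ligase peaks and 1400 bp for all coding-type peaks. These intervals overlap, and the 26 peaks come from 9 genes. The median of the conjugating enzymes was 1.87 times that of all coding-type peaks, but 1.16 times without Ube2w, which ties with Ube2f for the most peaks, and 1.14 times with Ube3b and Ube3c counted among them. Peaks of at least 5 kb made up 9 of 26, 14 of 91 (15.4%) and 18 of 156 (11.5%), beside 13.5% of all coding-type peaks. The chromosomes of the roles differ, and width moved with them. Chromosome 5 gave 31 protease peaks of 5 genes, 16 of them of Usp12, and 60 ligase peaks of 12 genes. It gave 0 peaks of a conjugating enzyme. The medians there were 400 bp in proteases and 800 bp in ligases, beside 800 bp over all coding peaks. On chromosome 1 the median of each role was above the 1025 bp of all coding peaks, but few genes stand behind it. In proteases it was 2358 bp (18 peaks of 2 genes, 13 of them of Usp37). In conjugating enzymes it was 3075 bp (14 peaks of 3 genes) and in ligases 1538 bp (38 peaks of 6 genes). What part the chromosome has in the order of the roles was not tested.

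**Figure D4:**
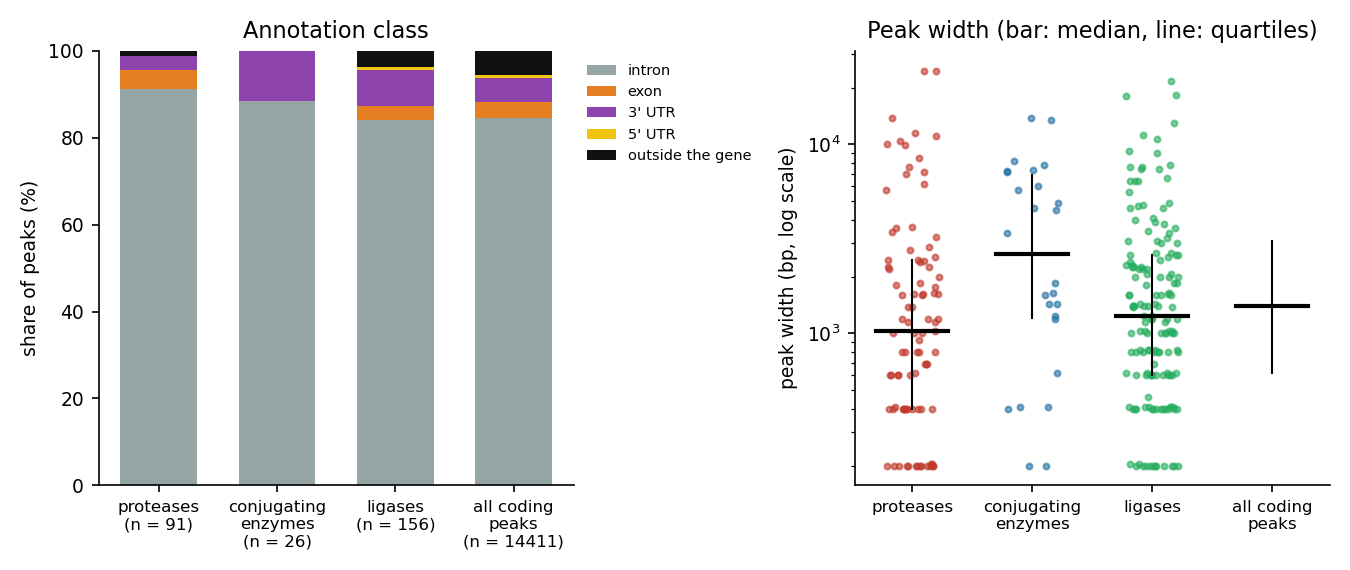
Left, share of peaks in each annotation class (%) by role and over all coding-type peaks, with the number of peaks under each bar; right, width of each peak in bp on a log scale, with the median (bar) and quartiles (line). Introns hold 84.0% to 91.2% of the peaks in each role, and the conjugating enzymes have the highest median width, 2620 bp against 1025 and 1230 bp.

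The proteases ranged from single narrow peaks to genes under wide ones. The widest peak of any member was 24610 bp in Usp9x, on the X chromosome from 13093901 to 13118510, and 5 more peaks followed up to 13167730, leaving gaps of 460 to 2300 bp. Its Y-linked homologue Usp9y had 2 intron peaks over 2.60% of 160.8 kb. Whether reads are shared between these homologues was not tested. Usp14, a protease bound to the proteasome, had 1 intron peak of 24600 bp over 67.2% of the gene and 1 intergenic peak of 1000 bp outside it. Usp11 had 1 peak of 11040 bp and 1 of 1380 bp, and the first also holds the whole noncoding gene Gm39499 on the same strand. Usp7, which stabilises MDM2, had 3 peaks over 14.9%, with 49000 bp, the longest gap in the set, between 2 of them. At the narrow end, Usp15 had 3 peaks of 200 to 400 bp over 0.867% of 92.3 kb, and Usp30, a mitochondrial protease, 2 over 2.58%. Usp46, the close relative of Usp12, had 1 peak of 800 bp in its 3′ UTR and none in an intron. Uspl1 and Usp42 had 6 peaks each, with 1 and 2 in exons. Usp40 had 5 intron peaks over 16.8% of its gene, and Usp44, known from the spindle checkpoint, had 4 over 7.60%. Usp25 had 3 intron peaks over 4.85% of 103.1 kb. Usp38 had 1 of 3600 bp, and Usp16, which removes ubiquitin from histone H2A, had 1 of 400 bp.

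Conjugating enzymes with a peak were Ube2w, Ube2f, Ube2g2, Ube2l3, Ube2a, Ube2v2, Ube2t, Ube2d2a and Ube2e3. Ube2w, which attaches ubiquitin to the N terminus of proteins, had 6 intron peaks of 615 to 13530 bp over 49.5% of its gene. Ube2f had 6 over 66.2%, the widest of 13735 bp. Ube2g2, an enzyme of the degradation of proteins from the endoplasmic reticulum, had 4 over 21.5%, and Ube2l3, which serves ligases of the HECT and RING-between-RING types, had 2 over 22.6%. Ube2t, of the Fanconi anaemia pathway, had 2 peaks of 1230 and 410 bp that lie 1 bin apart. Ube2v2, a variant without catalytic activity that partners Ube2n, had 2 peaks over 16.4%, and Ube2d2a had 1 of 7200 bp. Ube2n itself had none. The least covered was Ube2e3, with 1 peak of a single bin over 0.330%.

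RING ligases ranged from a single narrow peak to genes mostly under peaks. Rnf138 had 3 peaks on chromosome 18, the widest of 18200 bp, and Rnf14, a RING-between-RING ligase, had 1 peak of 21600 bp over 52.6% of the gene. That peak also holds the small nuclear RNA gene Gm23205, of 105 bp. A peak of 600 bp in an intron of Fbxw8 likewise overlaps 94 bp of the small nuclear RNA gene Gm26411. Rnf149 had the only 5′ UTR peak of the set, of 7790 bp, which holds a small nucleolar RNA gene of 130 bp, and 1 intron peak of 9225 bp 1 bin away. Rnf2, which ubiquitinates histone H2A in the polycomb complex, had 3 intron peaks over 39.6%. Rnf10 had 5 peaks over 42.4% and Rnf34 had 4 over 37.2%. Rnf168, a histone H2A ligase of the DNA damage response, had 1 intron peak of 2000 bp and 1 intergenic peak of 4800 bp. Rnf217 and Rnf32 had 3 intron peaks each, over 7.97% and 6.31%, and Rnf6 and Rnf144a had 2 each, over 22.8% and 1.89%. Single narrow intron peaks were found in Rnft2 (600 bp) and Rnf25 (410 bp). The single peak of Rnf4, a ligase for SUMO-modified proteins, is intergenic, covers 0 bp of the gene and overlaps Cfap99 by 3061 bp. Ube3b and Ube3c, HECT ligases, had 6 peaks over 8.86% and 3 over 20.9%, 1 of them of 18000 bp at the start of Ube3c.

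Among the other cullins and the F-box proteins cover also varied. Cul2 had 3 intron peaks over 10.1%, and the 1 peak of Cul4a, named downstream, covered 1.28%. Fbxo38 had 6 intron peaks over 63.1%, the widest of 13000 bp, which reaches 128 bp into Spink10. Fbxo33 had 2 peaks over 11.5%, Fbxw8 had 6 over 12.2% and Fbxl18 had 3 over 4.01%. Fbxo5, the inhibitor of the anaphase-promoting complex also called Emi1, had 1 exon peak of 600 bp on chromosome 10, from 5802001 to 5802600. Fbxo8 had 1 intron and 1 exon peak over 4.67%, and Fbxo36 and Fbxo7 had 1 intron peak each, of 615 and 600 bp. Fbxo30 had 1 intergenic peak that covered 0 bp of it.

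In 3 members every peak was in an exon or UTR: Trim44, Usp46 and Fbxo5. Trim44 had 3 peaks, all in the 3′ UTR, on chromosome 2 between 102300601 and 102304200, of 200, 1600 and 400 bp, while the rest of its 100.8 kb had none. Trim39 had 1 intron peak of 2000 bp on chromosome 17. In all, 16 members had a 3′ UTR peak, and the matching share of coding genes was not computed. Their 3′ UTR peaks numbered 19, with a median of 1000 bp. The 17 with a known strand all centred in the last 10% of the gene, a place that the class itself implies. Chromosomes 2 and 17, where under 10% of coding genes had a peak, gave 5 members with a peak: Trim44, Fbxo3, Ube2e3, Trim39 and Usp49. The 1 peak of Usp49 lies wholly inside Gm20517 too, which the table lists as another coding gene on the same strand. Over the set 31 of 273 peaks (11.4%) overlap another gene, against 7.05% of all coding-type peaks, and 14 of the 31 are those of Usp26.

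Other genes of the pathway also carried peaks. Their lists were written from textbook knowledge, but with earlier results of these data known. Of 156 on the chromosomes of the list 61 had one (39.1%, 31.8% to 46.9%), where 18.1% of all coding genes had one. On the well covered chromosomes it was 57 of 84 (67.9%, 57.3% to 76.9%), where 34.5% of all coding genes had one. The listed genes were not matched to coding genes by span. On the well covered chromosomes 15.0% of coding genes in the shortest group had a peak and 50.8% in the longest. All 3 genes listed as activating enzymes there had one: Uba6 with 6, Uba1 with 3 and Nae1 with 1. Nae1 is part of the activating enzyme of NEDD8, not of ubiquitin. HECT ligases had a peak in 9 of 11, among them Huwe1 with 24 over 71.8% of 134.6 kb, Hectd4 with 21 and Smurf1 with 14. Other RING ligases had one in 18 of 27, led by Cop1 with 51 peaks, more than any member of the prefix families, Mid2 with 18 and Bard1, the partner of BRCA1, with 13. Of other cullin ligase parts 7 of 8 had one (Dcaf6 with 35, Dcaf8 with 17, Klhl20 with 10), of proteasome genes 9 of 11 (Psmd1 with 10, the testis subunit Psma8 with 4, Psmd2 with 3), and of other deubiquitinases 7 of 14 (Uchl5 with 15, Atxn3 and Brcc3 with 6 each). The anaphase-promoting complex had 4 of 8, with 4 peaks each in Anapc5 and Anapc7 and 3 in Anapc4.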

How the data were processed

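RIP-seq of BUD31 was carried out by the authors on postnatal day 14 mouse germ cells, with 1 antibody and 1 input library. The submitters' processing notes name TopHat2 2.0.13 and the mm10 build. The program, threshold and role of the input in peak calling were not given in the sources used here. Positions and classes are what the authors' deposited list gives, per the file headers, and it holds no counts. Starts and widths are multiples of a bin of 200 to 230 bp, fixed per chromosome.

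Gene numbers were matched to the RefSeq table of GRCm38.p6, and all 67 members matched. Only peaks of protein-coding type were used, for members and for the background. Covered share is the union of a gene's peaks over its span. Overlap needed at least 1 bp. Roles follow the symbols: Usp, Ube2, and all other prefixes as ligases. Members, lists and the named-gene rule (the 4 markers, the 10 with the most peaks, the 5 most covered, up to 4 per family, exon-or-UTR-only members, the widest peak and longest gap, 3 per list) were chosen with earlier results of these data known. Other members are named after their values were seen, and a few genes that enter the counts are not reported here by name. Functions were tested on simulated data. Python 3.11.15, numpy 2.4.6, pandas 2.3.3, scipy 1.17.1 and matplotlib 3.10.9 were used.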

Additional observations from a re-analysis of the deposited data

How the results depend on the processing

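Of 92 recomputed values 83 stayed within the counting interval of the reported one and 9 moved beyond it. Some of the 83 could not move. With every Ube gene as a conjugating enzyme, the share of all members and the values of the proteases stay the same by construction. On the well covered chromosomes the share with a peak was 58.3% for all members, 81.0% for proteases, 57.1% for conjugating enzymes and 51.5% for ligases, since the genes of thinly covered chromosomes drop out by construction. With narrow peaks left out (those under the median width of their chromosome) 24.1% of members had a peak, against 14.3% of coding genes. With peaks inside the gene body only, the median number of peaks over that of coding genes rose from 1 to 1.5 in ligases and proteases and from 0.667 to 1 in conjugating enzymes, since the median of coding genes fell from 3 to 2 and those of the roles stayed as they were. Per 100 kb of span that of proteases fell from 1 to 0.661. With the widest peak of each gene only, introns held 100% of peaks in conjugating enzymes and 76.9% in ligases. Beyond the fewer peaks or genes that each setting keeps, the cause was not tested. Without the member with most peaks in each role (Usp12, Ube2w, Cul3) the median width over that of all coding peaks went from 0.732 to 0.986 in proteases, from 1.87 to 1.16 in conjugating enzymes and from 0.879 to 0.857 in ligases. With every Ube gene as a conjugating enzyme it was 1.14 in those. These values lie inside the wide intervals of the reported ones. Settings added after seeing the data were peaks of any type (31.4% of members) and no peaks over another gene (28.6%), and neither took a value outside its interval. Without peaks over another gene Usp26, Usp49, Rnf14 and Rnf4 have none. No paired analysis was possible because each group has 1 library. Depth and peak strength are unknown, so weak and strong peaks count alike.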

Other observations

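Some peaks name a member's gene but a noncoding transcript, and were left out above. Rnf41, a RING ligase, and Rnf170, a ligase of the endoplasmic reticulum, had only such peaks, 3 and 1, all in introns. Usp40 had 4 beside its 5 of coding type, Rnf149 had 2 and Rnft2 had 1.

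The peaks carry running numbers, and those between a member's first and last peak show how much of the numbered set is absent from the list. Over the 49 members with at least 2 peaks 261 of 504 numbers were in the list (51.8%), close to the 51.0% over all coding genes. By chromosome the members kept 85.4% on X, 78.7% on chromosome 1 and 34.0% on chromosome 5, beside 78.6%, 49.1% and 37.1% over all coding genes. Usp26 and Cul4b kept every number, Cul3 lacked 4 of 22, Usp12 lacked 26 of 42 and Rnf216 lacked 50 of 67. What removed the numbers is not given, and their part in the number of peaks per gene was not tested.

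Neighbouring peaks of a member were 1 bin apart in 26 of 206 pairs (12.6%), against 14.5% over all coding genes, so the number of peaks depends on how such neighbours were joined.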
